A study of Mus musculus with 6 samples.

Results

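The genes that make Hedgehog ligands and release them from the cell were followed in whole mouse kidneys at E13.5. The 7 genes were Shh, Ihh and Dhh, which encode the ligands, Hhat, which encodes the acyltransferase that palmitoylates them, Disp1, which encodes the transporter-like protein that releases them, and Scube1 and Scube2, which encode secreted proteins of the family that carries them off the cell surface. They were picked by gene symbol as a functional group, with earlier results of these data known, and all 7 were found among the 22394 genes of the deposited table. RNA was sequenced from paired kidneys of 3 mutant embryos, of genotype Foxd1Cre;Ptch1 (flox/-), and from 3 control libraries of littermates, of genotype Ptch1 (flox/+). Every embryo carried 1 floxed Ptch1 allele. The mutants differed from the controls in carrying Cre expressed from Foxd1, a gene of the renal stromal progenitors, and in carrying a null Ptch1 allele in every cell, so these differences cannot be told apart. Litters are not named for single libraries, and whether each control library came from 1 embryo is not stated, so p-values measure the spread between these libraries.

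Hedgehog ligands are made by some cells and read by others. In the embryonic mouse kidney Shh comes from epithelium of the ureter and of the deeper ureteric branches, and the surrounding stroma receives it. Ihh is known from tubule epithelium and growing cartilage, and Dhh from Schwann cells, Sertoli cells of the testis and endothelium. A ligand is cleaved, given a cholesterol and a palmitate, and then set free through Disp1 with the help of a Scube protein. On the receiving cell the ligand binds Ptch1, which without ligand keeps the transducer Smo off.

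All 7 genes are protein-coding and lie on the minus strand of GRCm38. Shh is at chr5:28456815-28467256, Ihh at chr1:74945315-74951672 and Dhh at chr15:98891152-98898540. Hhat is at chr1:192496711-192771223 and Disp1 at chr1:183086266-183221522. Scube1 is at chr15:83604999-83725021 and Scube2 at chr7:109798676-109865679.

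The libraries held 13261588 to 47847925 reads in mutants and 21644399 to 25416896 reads in controls. Control 2 stood apart: mitochondrial genes took 0.367% of its reads, against 1.21% to 1.92% in mutants and 1.53% and 2.12% in the other controls. The Y-linked gene Ddx3y was at 13.9 to 16.2 FPKM (reads per gene scaled to gene length and library depth) in mutants and at 17.8 FPKM in control 2, but at 0.0598 and 0.0177 FPKM in controls 1 and 3, so sex was not balanced between the groups. The samples were bulk tissue, in which fewer cells of a type and less RNA per cell cannot be told apart. The fold changes of the 7 genes that turned or moved most with control 2 are given with and without it. Leaving out control 2 sets mutants high in Ddx3y against controls 1 and 3, both low in it. In every fit without control 2, genotype and sex therefore cannot be told apart.

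None of the 7 genes passed the test over all genes. In limma, with Benjamini-Hochberg adjustment over 16933 genes, 0 of the 7 had an adjusted p under 0.05, where 0.307% of all genes tested did (0.219% higher and 0.0886% lower in mutants). Without control 2 it was also 0 of 7, against 0.933% of all genes tested. With all 6 libraries there were also 0 of 7 at an unadjusted p under 0.05, against 9.63% of all genes tested. Without control 2, 3 of the 7 (Scube1, Dhh and Disp1) had an unadjusted p under 0.05 in limma. The share of all genes at that threshold was not computed for that fit, so this count has no background and is not read as a result about the 7. The authors' deposited table called 0 of 7, with no adjusted p for Dhh, against 4.61% of the genes to which it gave an adjusted p. With all 6 libraries the groups overlapped for each of the 7, whereas they did not overlap for 16.7% of all genes tested. That share was not computed without control 2. The median log2 fold change of the 7 was 0.27, mutant over control, beside -0.01 for all genes tested, with 5 positive and 2 negative values, where 49.1% of all genes tested were positive. All 7 passed the filter on low values, which asked for 10 normalized counts in at least 3 libraries, but Ihh reached that count in 3 libraries and Dhh in 4.

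The levels of the 7 genes spanned a wide range. By the mean over the 6 libraries, per gene length, Disp1 (6.82 FPKM), Scube1 (6.20 FPKM) and Hhat (5.80 FPKM) were the most abundant, at percentiles 61.6 to 64.2 of all genes in the table. Shh followed at 1.32 FPKM, and Scube2 (0.336 FPKM), Ihh (0.288 FPKM) and Dhh (0.230 FPKM) were lowest. Neighbours within the upper group changed places between libraries, with Disp1 above Scube1 in 3 of 6 libraries and Scube1 above Hhat in 4 of 6. The same held in the lower group, where Scube2 was above Ihh in 3 of 6 libraries and Ihh above Dhh in 3 of 6. The steps from Hhat to Shh and from Shh to Scube2 held in 6 of 6 libraries, with ranges that did not overlap.

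**Figure D1:**
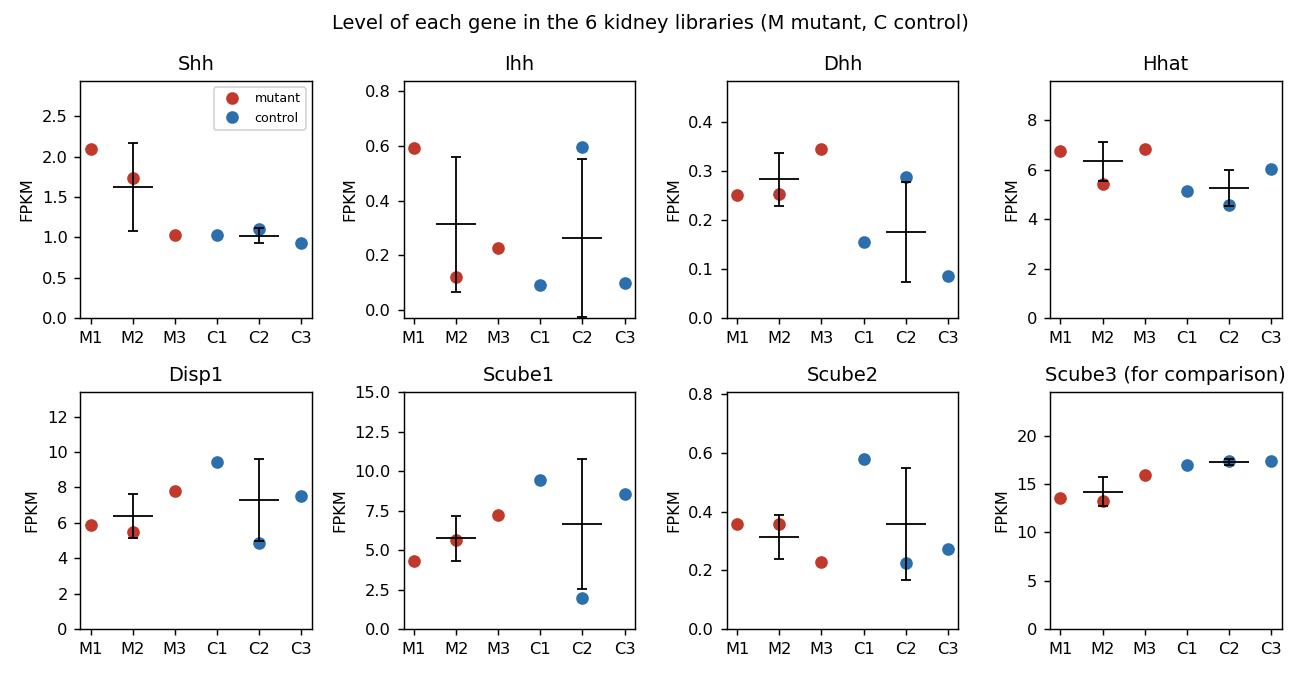
FPKM of each gene in the 3 mutant (M) and 3 control (C) libraries, with the group mean and SD as a bar with whiskers. The groups overlap for each of the 7 genes, and control 2 lies far below the other controls for Scube1 and far above them for Ihh.

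Shh, the ligand of the ureteric epithelium, was the most abundant ligand RNA but still scarce. It was at 2.10, 1.73 and 1.03 FPKM in mutants 1 to 3, against 1.03, 1.11 and 0.929 FPKM in controls 1 to 3. Mutants 1 and 2 lay above every control, while mutant 3 lay inside the control range. The group means were 1.62 ± 0.543 FPKM in mutants and 1.02 ± 0.0891 FPKM in controls (SD, n = 3 each). The log2 fold change was 0.60 (SE 0.30, 95% confidence interval -0.09 to 1.29, limma adjusted p = 0.55). That interval covers fold changes of 0.941 to 2.44. The exact two-sided permutation test gave p = 0.3, where 3 against 3 cannot go below 0.1. Leaving out 1 library at a time gave log2 fold changes from 0.38 (without mutant 1, limma unadjusted p = 0.257, adjusted p = 0.858) to 0.89 (without mutant 3, unadjusted p = 0.0135, adjusted p = 0.585). Shh shares 446 exon bases with the antisense gene 9530036O11Rik and 361 with Gm26894, both on the other strand, and no source used here states whether counting was by strand, so some of its reads may belong to them.

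Some epithelial genes, but not all, were high in the same libraries as Shh. Cdh1, which encodes the epithelial cadherin, was at 20.4, 11.96 and 11.3 FPKM in mutants, against 9.72, 10.9 and 7.28 FPKM in controls. Gata3, a transcription factor gene of the ureteric lineage, was at 33.8, 23.3 and 21.9 FPKM in mutants, against 18.8, 17.3 and 10.5 FPKM in controls. Both followed Shh in that mutant 1 was highest, mutant 2 next and control 3 lowest. Neither passed the test over all genes (limma adjusted p = 0.49 for Cdh1 and 0.388 for Gata3), and the authors' deposited table called Gata3 (adjusted p = 0.00351). The keratin gene Krt8, the most abundant of the epithelial list, was at 86.7, 46.8 and 38.3 FPKM in mutants, against 30.6, 66.4 and 34.2 FPKM in controls. Calb1, which encodes a calcium-binding protein of the ureteric epithelium, was at 40.5, 19.2 and 17.7 FPKM in mutants, against 10.9, 37.8 and 8.37 FPKM in controls. These 2 were second highest in control 2, unlike Shh. Of the 17 tested genes of the ureteric and urothelial list, 0 passed in limma, 16 had positive fold changes and the median log2 fold change was 0.45 (0.74 without control 2). The summed level of that list was 225 to 424 FPKM in mutants and 158 to 317 FPKM in controls. Upk3a, a urothelial membrane gene, and Aqp2, the water channel gene of the mature collecting duct, were each listed at 0 in at least 1 library, and Upk2 had no row in the table. Set against Cdh1 within a library, a ratio chosen after the values were seen, Shh had 6.59, 9.31 and 5.86 normalized counts per 100 of Cdh1 in mutants, against 6.81, 6.50 and 8.21 in controls. On that ratio mutants 1 and 2 no longer lay together above the controls. The part of the epithelial share in the Shh values was not tested.

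Ihh, the ligand of tubule and cartilage, was high in 1 library of each genotype. It was at 0.591, 0.121 and 0.229 FPKM in mutants 1 to 3, against 0.0928, 0.598 and 0.0989 FPKM in controls 1 to 3. Mutant 1 and control 2 were high and almost equal. In reads, mutant 1 had 32 (exact 95% Poisson interval 21.9 to 45.2) and control 2 had 37 (26.1 to 51.0), whereas mutant 2 had 4 (1.09 to 10.2) and control 1 had 5 (1.62 to 11.7). These intervals cover counting error only. The log2 fold change was 0.47 (SE 0.79, 95% confidence interval -1.35 to 2.28, limma adjusted p = 0.833). It was 1.28 without control 2 (limma unadjusted p = 0.0803, adjusted p = 0.594) and -0.11 without mutant 1 (limma adjusted p = 0.979). Without control 2 each mutant lay above both remaining controls, but how many of all genes separate in that way was not computed.

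The same libraries held the most RNA of proximal tubule genes. Hnf4a, a transcription factor gene of the proximal tubule, was at 2.79, 0.480 and 0.772 FPKM in mutants, against 0.378, 9.30 and 0.550 FPKM in controls. It was highest in control 2 and next highest in mutant 1, as Ihh was. Lrp2, the gene of the endocytic receptor megalin, was at 0.946, 0.358 and 0.457 FPKM in mutants and 0.356, 0.918 and 0.329 FPKM in controls. Cdh6, the most abundant gene of the list, did not follow that order, at 5.82, 3.29 and 5.18 FPKM in mutants and 7.24, 5.86 and 6.82 FPKM in controls. Over the 10 listed genes the summed level was 14.9 FPKM in mutant 1 and 4.99 to 7.46 FPKM in the other mutants, against 27.9 FPKM in control 2 and 8.34 to 8.45 FPKM in the other controls. Of these 10 genes 7 were tested and 0 passed in limma, with a median log2 fold change of -0.31 (0.65 without control 2), and the sodium-glucose transporter gene Slc5a2 was listed at 0 in 1 library. The cartilage list did not have its highest sums there, with 85.5, 101 and 95.0 FPKM in mutants, against 90.5, 48.2 and 77.8 FPKM in controls. The floor plate, notochord and gut list, like the tubule list, had its highest sums in mutant 1 (2.67 FPKM) and control 2 (5.73 FPKM). The epithelial genes Krt8 and Calb1 were also highest in mutant 1 and control 2, so that pattern was not particular to tubule genes. The part of each of these cell types in the Ihh values was not tested.

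Dhh, the ligand of Schwann and Sertoli cells, was the scarcest of the 7. It was at 0.251, 0.253 and 0.345 FPKM in mutants, against 0.155, 0.287 and 0.0861 FPKM in controls. Control 2 lay among the mutants and the other controls lay below them. The log2 fold change was 0.76 (SE 0.49, 95% confidence interval -0.37 to 1.88, limma adjusted p = 0.614), and leaving out 1 library at a time gave 0.38 (without control 3, unadjusted p = 0.477, adjusted p = 0.842) to 1.15 (without control 2, unadjusted p = 0.0428, adjusted p = 0.474). Only 8 to 39 reads supported each mutant value, and 5 to 17 reads each control value. Dhh also shares 546 exon bases with Rhebl1 on the same strand and 1107 with the antisense gene Gm49442, so its level is uncertain.

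Markers of the cells known to make Dhh were measured beside it. Of 18 endothelial genes 4 rose in limma and 0 fell, and the median log2 fold change of the 18 was 0.91 (0.82 without control 2). Without control 2, 9 of 18 passed, where 0.933% of all genes tested did in that fit. The 4 were Tie1, a receptor kinase gene, the cell junction genes Esam and Cldn5, and Emcn. Emcn, an endothelial sialoglycoprotein gene, was at 22.3, 21.7 and 25.8 FPKM in mutants, against 8.39, 10.3 and 9.47 FPKM in controls. The summed level of the endothelial list was 388 to 462 FPKM in mutants and 218 to 230 FPKM in controls, and no listed gene was at 0. Of 7 tested Schwann and glial genes 0 passed in limma (median log2 fold change 0.73, or 0.49 without control 2, summed level 12.1 to 16.4 FPKM in mutants and 9.16 to 12.8 FPKM in controls). Of 5 tested testis and gonad genes 0 passed (median 0.12, or 0.16 without control 2, summed level 12.2 to 14.8 FPKM in mutants and 9.15 to 14.5 FPKM in controls), and Dmrt1, Hsd17b3, Cyp17a1 and Dazl had no row in the table. The Sertoli cell gene Amh was at 0.639 to 0.761 FPKM in mutants and 0.406 to 0.609 FPKM in controls. The part of these cells in the Dhh values was not tested.

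Summed over the 3 ligand genes, the level was 2.94, 2.11 and 1.60 FPKM in mutants, against 1.28, 1.99 and 1.11 FPKM in controls. Mutants 1 and 2 lay above every control, and control 2 lay above mutant 3. Shh made up 64.2% to 82.2% of that sum in mutants and 55.6% to 83.4% in controls.

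Hhat, the gene of the enzyme that adds palmitate to the ligands, varied least. It was at 6.75, 5.43 and 6.85 FPKM in mutants, against 5.14, 4.59 and 6.05 FPKM in controls. Mutants 1 and 3 lay above every control, while mutant 2 lay below control 3. Its highest library was 1.49 times its lowest, the smallest such ratio among the 7 genes. The means were 6.34 ± 0.791 FPKM in mutants and 5.26 ± 0.738 FPKM in controls (SD, n = 3 each), with a log2 fold change of 0.27 (SE 0.17, 95% confidence interval -0.11 to 0.65, limma adjusted p = 0.602). In the authors' deposited table the log2 fold change was 0.31 (adjusted p = 0.564).

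Disp1 and Scube1, the release transporter and the more abundant of the 2 Scube genes among the 7, moved together across libraries. Disp1 was at 5.87, 5.46 and 7.80 FPKM in mutants, against 9.44, 4.86 and 7.51 FPKM in controls. Scube1 was at 4.33, 5.67 and 7.23 FPKM in mutants, against 9.45, 1.95 and 8.56 FPKM in controls. Both were lowest in control 2 and highest in control 1, so the mutants lay inside the control range for Scube1 and for Disp1. As a description over the 6 libraries, Pearson's r between them on log2 normalized counts was 0.87, and it was also 0.87 over the 5 libraries without control 2. The ratio of Scube1 to Disp1 was not constant, with 116, 163 and 146 normalized counts of Scube1 per 100 of Disp1 in mutants, against 157, 63.1 and 179 in controls.

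**Figure D2:**
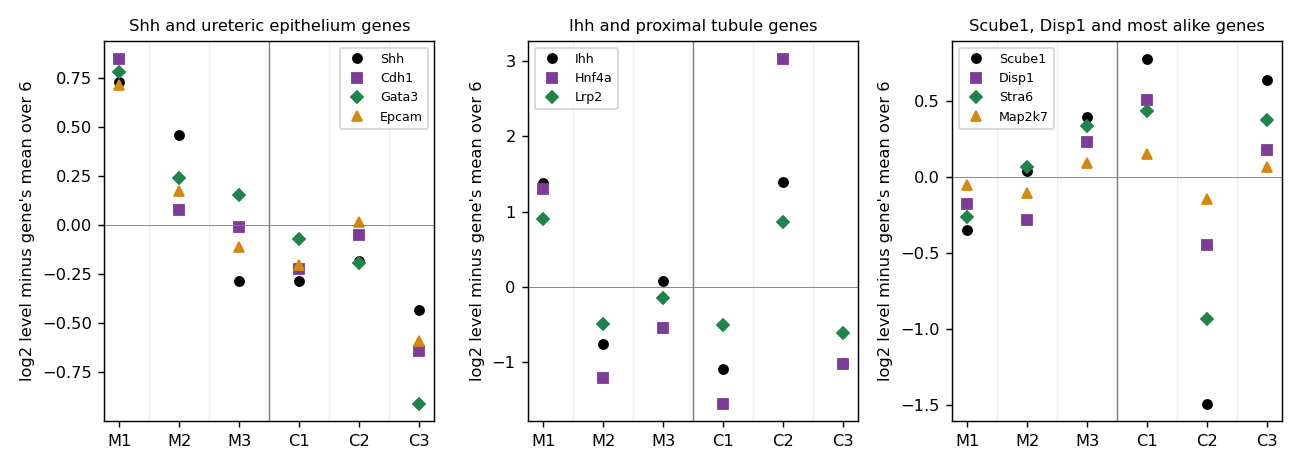
Log2 level in each library (M mutant, C control) minus the gene's mean over the 6 libraries, from normalized counts plus 1, and from FPKM for Stra6 and Map2k7. Shh shares its 2 highest libraries (M1 and M2) with the plotted epithelial genes Cdh1, Gata3 and Epcam. Ihh shares its 2 highest (M1 and C2) with the plotted tubule genes Hnf4a and Lrp2. Krt8 and Calb1 of the epithelial list and Cdh6 of the tubule list are not plotted and did not follow these orders. Scube1 and Disp1 are lowest in C2.

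The fold change of Scube1 took either sign. With all 6 libraries its log2 fold change was 0.06 (SE 0.54, 95% confidence interval -1.17 to 1.28, limma adjusted p = 0.975), although the mean was lower in mutants, at 5.74 ± 1.45 FPKM, than in controls, at 6.65 ± 4.10 FPKM (SD, n = 3 each). Without control 2 it was -0.68 (95% confidence interval -1.12 to -0.23, limma unadjusted p = 0.00721, adjusted p = 0.217). Each mutant then lay below both remaining controls, which were those low in Ddx3y. How many of all genes separate in that way without control 2 was not computed. In the authors' deposited table it was 0.63 (SE 0.29, unadjusted p = 0.032, adjusted p = 0.241). Disp1 behaved in the same way, with -0.15 over all libraries (SE 0.25, limma adjusted p = 0.821). It was -0.42 without control 2 (limma unadjusted p = 0.0465, adjusted p = 0.488) and 0.15 in the authors' deposited table (adjusted p = 0.778).

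The deposited fold changes did not weigh the libraries equally. A least-squares fit of the deposited log2 fold change on the log2 normalized counts of the 6 libraries, over 9950 genes with 200 or more normalized counts in every library, gave weights of 0.29, 0.28 and 0.44 for mutants 1 to 3, against 0.00, -0.57 and -0.44 for controls 1 to 3 (R2 = 0.999). A plain difference of 2 groups of 3 would give weights of 0.33 and -0.33. Control 1, in which Scube1 and Disp1 were highest, therefore had next to no weight, and control 2, in which both were lowest, had the most. A model that compares mutants 1 and 2 with control 2 and mutant 3 with control 3, and sets control 1 by itself, has weights of 0.29, 0.29 and 0.43 for mutants and 0.00, -0.57 and -0.43 for controls. No source used here says what such sets would stand for. With these 3 sets as a block in limma, a fit chosen after the data were seen, Scube1 had a log2 fold change of 0.66 (95% confidence interval -0.02 to 1.35, adjusted p = 0.282) and Disp1 one of 0.15 (adjusted p = 0.647).

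**Figure D3:**
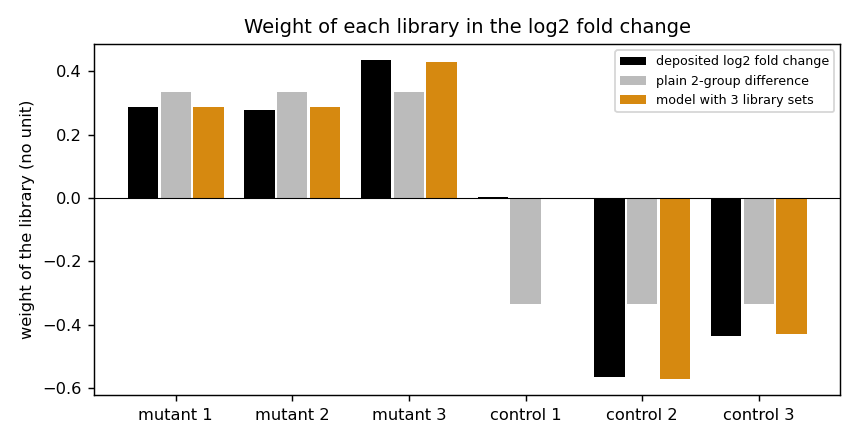
Weight of each library in the log2 fold change, mutant over control, for the authors' deposited table, a plain 2-group difference and a model with 3 sets of libraries. In the deposited values control 1 has a weight of 0.00 and control 2 one of -0.57.

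**Figure D4:**
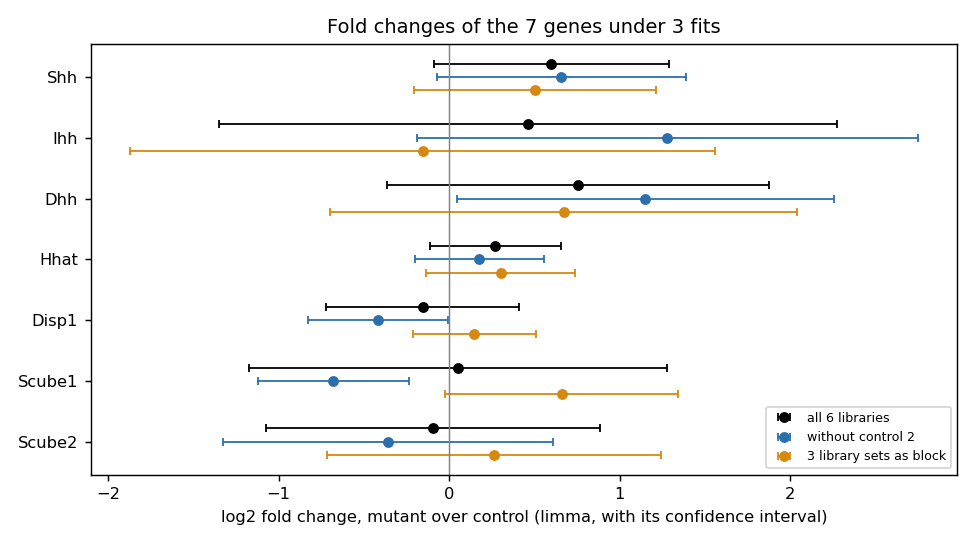
Log2 fold change of each of the 7 genes with its 95% confidence interval in limma, with all 6 libraries, without control 2, and with the 3 library sets as a block. Scube1 lies at 0.06, -0.68 and 0.66 in these fits, while Shh stays between 0.51 and 0.66.

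The start regions of Disp1 and Scube1, the pair that moved together, and of Ihh, whose r with Scube1 was -0.84, are given from RefSeq (GRCm38.p6), from 250 bases before to 50 bases after the start. These were the pairs of members with the highest and the lowest r over the 6 libraries, picked after the values were seen. Entries were found for 6 of the 7 genes, all but Shh. Capitals mark the GC box GGGCGG on either strand.
Disp1 (chr1:183221480-183221779, minus strand): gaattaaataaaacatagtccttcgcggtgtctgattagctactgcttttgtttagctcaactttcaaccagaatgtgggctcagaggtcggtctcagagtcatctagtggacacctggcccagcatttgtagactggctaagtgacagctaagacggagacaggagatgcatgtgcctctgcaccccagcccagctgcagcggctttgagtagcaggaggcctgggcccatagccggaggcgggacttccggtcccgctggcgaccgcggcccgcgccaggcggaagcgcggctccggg
Scube1 (chr15:83724990-83725289, minus strand): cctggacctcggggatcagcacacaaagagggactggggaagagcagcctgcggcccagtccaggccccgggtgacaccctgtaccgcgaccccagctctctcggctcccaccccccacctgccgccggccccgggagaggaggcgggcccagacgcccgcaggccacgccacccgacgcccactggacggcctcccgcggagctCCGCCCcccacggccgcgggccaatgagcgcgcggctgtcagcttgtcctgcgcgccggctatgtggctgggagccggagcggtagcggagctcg
Ihh (chr1:74951623-74951922, minus strand): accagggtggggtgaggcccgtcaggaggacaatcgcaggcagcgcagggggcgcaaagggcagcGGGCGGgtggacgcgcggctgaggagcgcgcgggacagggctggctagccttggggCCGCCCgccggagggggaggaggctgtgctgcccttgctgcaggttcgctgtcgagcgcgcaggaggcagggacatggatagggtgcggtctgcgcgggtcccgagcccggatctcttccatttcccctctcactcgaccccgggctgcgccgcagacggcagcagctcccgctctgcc
The Disp1 region held 0 GC boxes, Scube1 held 1 and Ihh held 2, and 35.7% of all 32851 such regions held at least 1. The GLI consensus GACCACCCA, the sequence bound by the transcription factors of the pathway, was searched on both strands and had 0 matches in the 7 regions of these 6 genes (Disp1 has 2 starts), where 0.253% of all regions held it. The TATA box TATAAA also had 0 matches in them, against 13.6% of all regions, so no matches of different motifs overlapped. GC content was 58.7% for Disp1, 75.0% for Scube1 and 72.7% for Ihh, beside a median of 52.7%. A missing match says only that these letters are not in that window.

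Scube2, the family member whose zebrafish counterpart is needed for Hedgehog signalling, was close to the lowest levels. It was at 0.357, 0.356 and 0.228 FPKM in mutants, against 0.577, 0.223 and 0.274 FPKM in controls. Control 1 was highest and the other 5 libraries lay between 0.223 and 0.357 FPKM. The log2 fold change was -0.09 (SE 0.43, 95% confidence interval -1.07 to 0.89, limma adjusted p = 0.945).

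Scube3, which is outside the 7 genes, was the most abundant Scube gene. It was at 13.54, 13.2 and 15.9 FPKM in mutants, against 17.0, 17.4 and 17.5 FPKM in controls, so every mutant lay below every control. The log2 fold change was -0.29 (SE 0.12, unadjusted p = 0.0372) and did not pass over all genes (limma adjusted p = 0.49, and 0.448 in the authors' deposited table). Summed over Scube1, Scube2 and Scube3, the level was 18.2, 19.2 and 23.4 FPKM in mutants, against 27.0, 19.6 and 26.3 FPKM in controls.

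The wider list of 20 release and spread genes had 18 tested, of which 0 passed in limma, with 10 positive and 8 negative log2 fold changes and a median of 0.02 (-0.11 without control 2). The smallest p after Scube3 was that of the glypican gene Gpc6, which encodes a heparan sulphate proteoglycan of the cell surface, at 4.41, 7.66 and 9.48 FPKM in mutants and 10.3, 8.75 and 12.4 FPKM in controls (limma adjusted p = 0.531). The authors' deposited table called 3 of the 20, all higher. These were the glypican gene Gpc3 and the heparan sulphatase genes Sulf1 and Sulf2, with log2 fold changes of 0.95, 0.92 and 0.67 in that table, against 0.61, 0.54 and 0.18 in limma (adjusted p = 0.605, 0.715 and 0.881). Gpc3 was lowest in control 2, at 540, 750 and 694 FPKM in mutants and 590, 216 and 619 FPKM in controls. Hhatl, a relative of Hhat, and Disp2, a relative of Disp1, did not pass the filter on low values. Disp2 had 9, 1 and 88 reads in mutants 1 to 3, against 3, 1 and 3 reads in controls 1 to 3, so that mutant 3 alone was high. The authors' deposited table gave Disp2 a log2 fold change of 3.37 (unadjusted p = 0.0189) and no adjusted p.

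Genes on the receiving side are given for comparison. Of 8 receptor and coreceptor genes 3 rose in limma, Hhip and Ptch1 among them, and 0 fell. Ptch1, the floxed gene and itself a pathway target, was at 23.5, 35.8 and 29.8 FPKM in mutants, against 8.26, 7.91 and 7.60 FPKM in controls (limma adjusted p = 0.00443). This level counts reads outside the floxed exons too, so it is no check of the deletion. Hhip, the gene of a membrane protein that binds the ligands, was at 16.8, 18.3 and 23.2 FPKM in mutants, against 0.389, 0.229 and 0.435 FPKM in controls (limma adjusted p = 9.17e-05). The level of Hhip was thus above that of the 3 ligand genes together in each mutant and below it in each control. Cdon, a coreceptor gene, was at 3.16, 3.72 and 5.55 FPKM in mutants, against 8.11, 5.54 and 9.99 FPKM in controls (log2 fold change -0.93, limma adjusted p = 0.31), and the authors' deposited table called it lower (adjusted p = 0.00587). Of 12 transducer genes 0 passed in limma, with Gli1, a transcription factor gene of the pathway, closest at a log2 fold change of 0.78 (adjusted p = 0.25). Gli1 was at 23.9, 31.6 and 31.2 FPKM in mutants, against 17.3, 12.7 and 21.3 FPKM in controls, so every mutant lay above every control. The authors' deposited table called it higher (log2 fold change 0.88, adjusted p = 0.00227). These tests do not compare the ligand genes with the receptor genes.

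**Figure D5:**
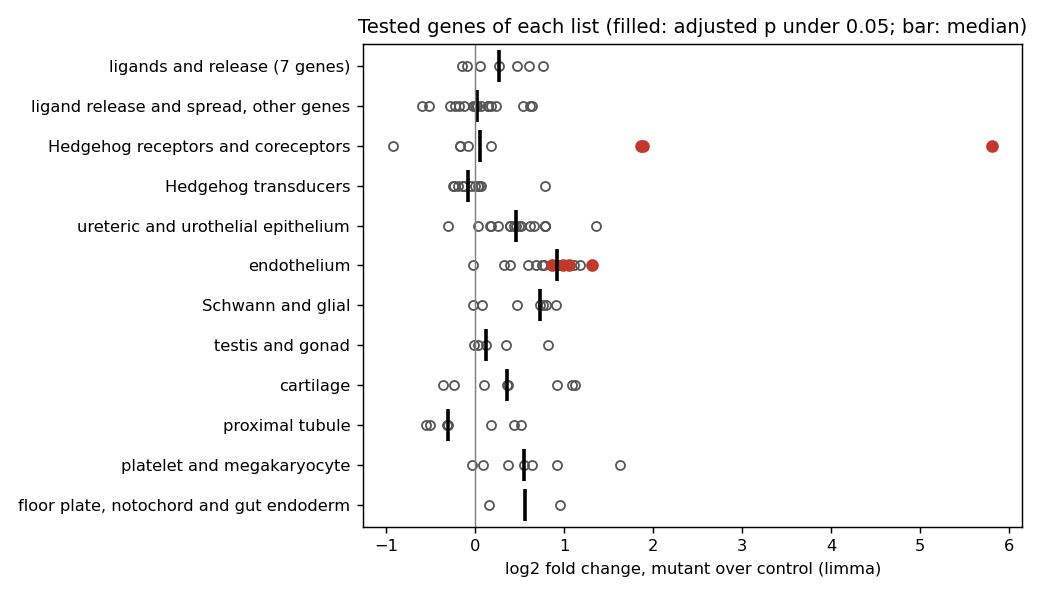
Log2 fold change, mutant over control, of every tested gene in each list, with filled points for an adjusted p under 0.05 in limma and a bar at the median. The filled points are 3 receptor genes and 4 endothelial genes, and the 7 ligand and release genes lie between -0.15 and 0.76.

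Other cell types that the dissected tissue could hold were also measured. Of 7 tested platelet and megakaryocyte genes 0 passed in limma (median log2 fold change 0.55, or 0.27 without control 2), with the summed list at 10.9 to 16.8 FPKM in mutants and 7.47 to 8.02 FPKM in controls. Of 8 tested cartilage genes 0 passed (median 0.36, or 0.25 without control 2). Of 9 floor plate, notochord and gut genes, 2 were tested and 0 passed, and Foxa2, Noto, Cdx2 and Fabp1 had no row in the table. The summed level of that list was 2.67 FPKM in mutant 1 and 5.73 FPKM in control 2, and 0.481 to 1.33 FPKM in the other libraries. Their part in the values of the 7 genes was not tested.

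The genes most like each member across the 6 libraries were sought among 12257 genes, for the 4 members that averaged 50 or more normalized counts. For Shh these were Nmb, Cyhr1 and Dcxr (Pearson's r = 0.98, 0.97 and 0.97). For Hhat they were Naaladl2, Tgif2 and Susd2 (0.99 for each). For Disp1 they were Map2k7, Ufl1 and Tmem39a (0.99, 0.99 and 0.99), and for Scube1 they were Stra6, Siae and Crabp2 (0.99 for each). Stra6 was at 14.6, 18.4 and 22.2 FPKM in mutants, against 23.7, 9.18 and 22.7 FPKM in controls, so it too was lowest in control 2. These values are over 6 libraries that the genes share, and they are given as a description only.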

How the data were processed

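RNA from whole kidneys at E13.5 was sequenced in 3 mutant and 3 control libraries. Of what the authors ran, the submitters' processing notes name Trim Galore, STAR 2.6.0c, HTSeq 0.6.1p2, DESeq2 and mm10, with no role or order. The deposited FPKM were made by the authors, and no header names their unit. Per the file headers, the authors deposited in the same table their normalized signal averaged over libraries, log2 fold change, standard error, Wald score, p-value and adjusted p-value. Multiplying each gene's FPKM by its mean signal over its mean FPKM gave normalized counts, of which 100% came out as whole reads (tolerance 1e-06 of a read) after division by a step for each library.

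limma 3.58.1 (R 4.3.3) with an intensity trend was fitted to log2(normalized count + 1) of 16933 genes with at least 10 in 3 or more libraries, which understates changes of low genes. The fit was checked on simulated data. Positions are from GENCODE M21 (GRCm38, the assembly of mm10). The members, lists and tests were chosen with earlier results of these data known. Names from each list were limited to genes that passed, otherwise the 2 with the smallest p, and the 4 most abundant where they mark a source of a member. Sulf1, Sulf2, Gpc3, Cdon, Upk3a, Aqp2, Slc5a2, Disp2 and Hhatl were named after their values were seen. The deviations of same-numbered libraries correlated for number 3 (r = 0.31) but not for numbers 1 and 2 (r = 0.00 and -0.10), so the number was taken as a name only. Alternatives covered pseudocount, filter, scaling, weights, voom, the replicate block and leaving out each library. Some genes of the lists are not reported here by name.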

Additional observations from a re-analysis of the deposited data

How the results depend on the processing

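Over 18 alternatives, of which 6 left out 1 library, 0 of the 120 results for the 7 genes passed an adjusted p of 0.05, and 107 kept their direction. Among these results, Dhh had no adjusted p in the authors' deposited table, so it could not pass there. Shh, Dhh and Hhat kept it under every alternative that tested them. Scube1 turned to -0.00 on FPKM (-0.0044) and to -0.29 with library weights. In the authors' deposited table Disp1 turned to 0.15 and Scube2 to 0.25. With the 3 library sets as a block, a fit added after the data were seen, Ihh turned to -0.16, Disp1 to 0.15 and Scube2 to 0.26. Without 1 library the log2 fold change ranged from 0.38 to 0.89 for Shh, from 0.38 to 1.15 for Dhh, from 0.18 to 0.38 for Hhat, from -0.11 to 1.28 for Ihh, from -0.42 to 0.0602 for Disp1, from -0.68 to 0.46 for Scube1 and from -0.36 to 0.30 for Scube2. The causes of these turns were not tested.

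The number of genes called among all genes was 52. It was 33 on FPKM, 380 with library weights, 732 in the authors' deposited table, 17 with the replicate block and 215 with the 3 library sets. It ranged from 9 to 158 without 1 library, with 12, 9 and 13 without mutants 1 to 3 and 15, 158 and 19 without controls 1 to 3. Under the replicate block 0 of the 7 genes passed, as without it, and Shh had a log2 fold change of 0.60 (adjusted p = 0.445). Ihh, Dhh and Scube2 had 111, 90 and 173 reads over all libraries, and their confidence intervals ran from 0.393-fold to 4.85-fold, from 0.776-fold to 3.68-fold and from 0.475-fold to 1.85-fold.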

Other observations

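Of the genes in the fit of the deposited weights, 10.9% had a deposited fold change of the opposite sign to the difference of their group means of log2 normalized counts. Xist, expressed in female cells, was at 0.103, 0.206 and 6.19 FPKM in mutants, against 72.9, 0.0471 and 53.3 FPKM in controls. Mutant 3 thus held more of it than the other 2 mutants while its Ddx3y level was like theirs.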
